A study of Mus musculus with 16 samples.

Results

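The comparison described here sets 4 arrays of HFD NiPKO kidneys against 4 arrays of chow CTRL kidneys, so that loss of PGC-1alpha and high-fat feeding are measured together. All 8 arrays of these groups, of 16 in the series, were taken by their labels, and all 22180 genes with a probe set annotated to a single symbol were compared, 1 value per gene from its brightest probe set. NiPKO mice carry Pax8-rtTA, (tetO-cre)LC1 and floxed PGC-1alpha alleles, and doxycycline (DOX, 0.2 mg/ml in drinking water for 2 weeks from 12 weeks of age) switches on Cre in the renal tubule while the glomerulus is spared. HFD NiPKO mice were then fed a high-fat diet with 60 kcal% fat for 20 weeks. Chow CTRL mice were control littermates fed chow for the same 20 weeks. The feeding of CTRL mice is timed from DOX as well, so the control group appears to have received the drug too. The other groups, 4 arrays each, were HFD CTRL and chow NiPKO, and all mice were male. The transgenes came from a mixed background, and recombination was also seen in the liver of NiPKO mice. Each array is labelled a biological replicate but is not linked to an animal. The p-values given therefore reflect how far these samples vary, which may be technical variation.

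PGC-1alpha, encoded by Ppargc1a, is a transcriptional coactivator that partners estrogen-related receptors (ERRs) and nuclear respiratory factors on genes of mitochondrial respiration. The proximal tubule reabsorbs most of the filtered load and depends on mitochondrial oxidation, mainly of fatty acids, for ATP. A high-fat diet raises the supply of fatty acids, which activate the receptor PPARalpha, while dietary lipid lowers the activity of the SREBP factors that drive sterol and fatty acid synthesis.

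Expression was read as normalized log2 values, so a difference of 1 is a doubling. The joint effect is the HFD NiPKO mean minus the chow CTRL mean. It is the exact sum of a genotype part (NiPKO minus CTRL, averaged over both diets) and a diet part (HFD minus chow, averaged over both genotypes), which were estimated from all 16 arrays. A gene was called when its Benjamini-Hochberg adjusted p in limma was under 0.05.

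The targeted gene was read first. Ppargc1a had log2 values of 9.96, 9.96, 10.07 and 9.96 in HFD NiPKO kidneys, against 9.68, 9.59, 9.56 and 9.60 in chow CTRL kidneys. The groups did not overlap and the arrays labelled NiPKO were the higher ones, by 0.38 (SE 0.0661, adjusted p = 0.00591). The chow NiPKO arrays, at 9.91 to 10.18, also lay above all 8 CTRL arrays. This goes against the label, but which exons the probes read was not analysed here, and probes that lie outside the deleted exons say nothing about the deletion. The study reports recombination of the floxed exons in NiPKO kidney by PCR and strongly reduced PGC-1alpha mRNA there by RT-PCR. Its own array list of genes higher in chow NiPKO than in chow CTRL kidneys also holds Ppargc1a. The groups are therefore called as labelled throughout.

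One array stood apart in cell type markers. Ucp1, the uncoupling protein of brown fat, had a log2 value of 7.96 in HFD NiPKO replicate 1, against 4.66 to 4.88 in the other HFD NiPKO arrays and 4.6 to 4.66 in chow CTRL. In the same array Cidea read 6.09, against at most 4.53 in every other array, and Plin1 read 6.34. The mean log2 value over 11 adipocyte markers was 7.12 in that array, 6.30 to 6.44 in the other HFD NiPKO arrays and 6.12 to 6.20 in chow CTRL. Adipoq, which encodes adiponectin, was at 4.25 to 4.62 in HFD NiPKO and 4.29 to 4.62 in chow CTRL. The part of adipose RNA in the results was not tested, and list counts and medians below are also given without that array where this moves them by more than 1.5 times. In whole kidney, fewer cells of a type and less RNA per cell cannot be told apart.

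Between HFD NiPKO and chow CTRL kidneys, 320 genes were called lower (1.44% of the 22180 tested) and 189 higher (0.852%). The median change of the called genes was -0.35 for those lower and 0.39 for those higher, so most differences were moderate. Of the genes called lower, 42 fell by more than 1.5-fold and 8 by more than 2-fold. Among those called higher, 38 rose by more than 1.5-fold and 9 by more than 2-fold. The arrays of the groups did not overlap in 312 of the 320 and 182 of the 189 genes, against 2117 (9.54%) of all genes. After median centring of the arrays the calls split into 377 lower and 130 higher. At the thresholds the study used, namely an unadjusted p below 0.05 together with more than a 1.2-fold difference, 598 genes were lower (2.7%) and 650 higher (2.93%).

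The genes called lower and those called higher differed in their make-up. The genotype part alone was called in 186 of the 320 genes lower in HFD NiPKO, the diet part alone in 75, both in the same direction in 17, both in opposite directions in 2, and neither in 40. Of the 189 genes higher in HFD NiPKO, the diet part alone was called in 86, the genotype part alone in 59, both in the same direction in 5 and neither in 39. The genotype part was the larger one in 216 of the 320 lower genes and in 82 of the 189 higher genes. Over all genes the genotype part was called lower for 406 genes (1.83%) and higher for 189 (0.852%), and the diet part lower for 379 (1.71%) and higher for 318 (1.43%). Leaving out single arrays moved the number of joint calls by more than 1.5 times in several cases, down to 272 of 509 without HFD NiPKO replicate 3.

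**Figure D1:**
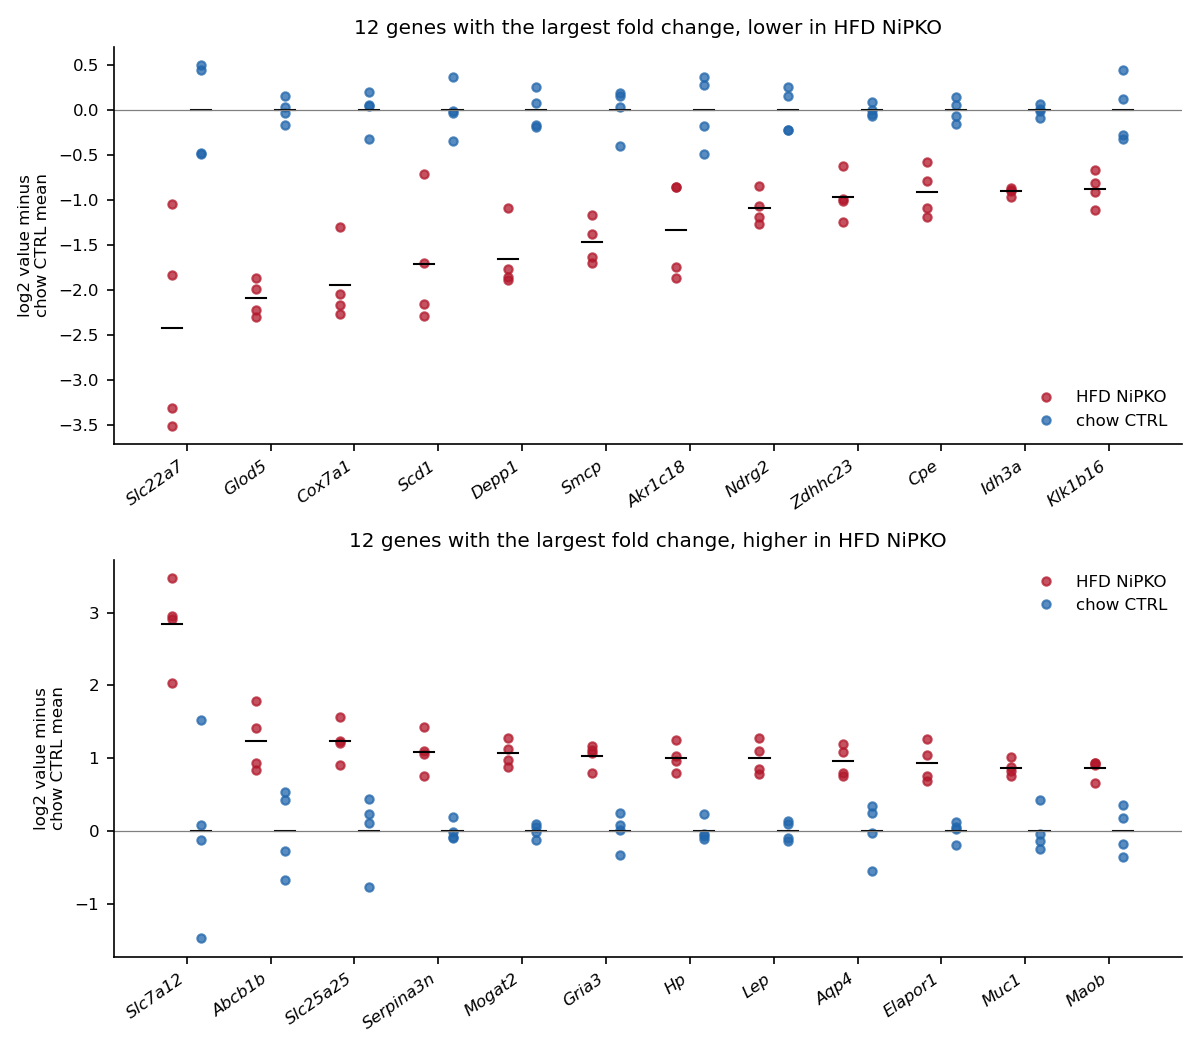
Log2 values of single arrays minus the mean of the chow CTRL arrays, for the 12 genes lower (upper panel) and the 12 genes higher (lower panel) in HFD NiPKO with the largest fold changes among called genes without overlap. Points are 4 HFD NiPKO arrays (red, left) and 4 chow CTRL arrays (blue, right), and black bars are means. No group overlaps the other, and Slc22a7, Scd1 and Slc7a12 have the widest spread within groups.

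The genes that fell through the genotype part were led by Glod5, Cox7a1 and Idh3a. Glod5 had log2 values of 7.77, 7.65, 7.34 and 7.41 in HFD NiPKO kidneys, against 9.47, 9.79, 9.60 and 9.67 in chow CTRL kidneys. It fell 4.25-fold (log2 -2.09, SE 0.095, adjusted p = 3.98e-09), with a genotype part of -2.30 and a diet part of 0.21. Cox7a1, the muscle-type form of a cytochrome c oxidase subunit, had 7.62, 6.88, 6.76 and 6.66 in HFD NiPKO and 8.98, 9.13, 8.60 and 8.97 in chow CTRL. The highest HFD NiPKO value was that of the array with high Ucp1, and the groups stayed apart. Cox7a1 fell 3.84-fold (log2 -1.94, SE 0.165, adjusted p = 1.39e-05). Idh3a, the catalytic subunit of the isocitrate dehydrogenase of the citrate cycle, was tight in both groups, at 8.92, 8.88, 8.82 and 8.90 in HFD NiPKO and 9.77, 9.85, 9.70 and 9.80 in chow CTRL. Its fall of 1.87-fold (log2 -0.90, SE 0.0752, adjusted p = 1.39e-05) lay in the genotype part (-0.93), with 0.03 in the diet part. Ndrg2 fell by 1.09 and Zdhhc23, of the palmitoyltransferase family, by 0.96 on the log2 scale, again with only the genotype part called.

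Among the 12 genes with the largest falls, 7 had only the diet part called. Scd1, the desaturase that makes monounsaturated fatty acids, had 10.16, 9.17, 8.58 and 8.71 in HFD NiPKO and 11.24, 10.84, 10.86 and 10.52 in chow CTRL. The array with high Ucp1 was the one closest to chow CTRL. Scd1 fell 3.27-fold (log2 -1.71, SE 0.305, adjusted p = 0.00665), with a diet part of -1.87 and a genotype part of 0.15. Depp1, a target of FOXO factors, fell 3.14-fold (log2 -1.65, SE 0.216, adjusted p = 0.000778). Its diet part was -1.65, and its genotype part was 0.00 after rounding. Slc22a7, the organic anion transporter OAT2, fell 5.36-fold (log2 -2.42, SE 0.547, adjusted p = 0.0275) and was uneven, at 8.18, 7.40, 5.72 and 5.92 in HFD NiPKO against 8.74, 8.75, 9.73 and 9.68 in chow CTRL. Its call was lost in 7 of 25 alternatives, among them leaving out HFD NiPKO replicate 3 or 4 or chow CTRL replicate 3 or 4 (adjusted p = 0.0807 to 0.097 in limma). Other genes of this kind were Smcp (log2 -1.47), Akr1c18, a steroid dehydrogenase (-1.33), Cpe, which processes prohormones (-0.91), and Klk1b16 (-0.88), a kallikrein whose near-identical relatives could share its probes. The call of Cpe was lost without any 1 of the same 4 arrays (adjusted p = 0.057 to 0.0698), and that of Akr1c18 without those or chow CTRL replicate 2 (0.0541 to 0.101).

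Among genes that rose, Slc7a12, an amino acid transporter that is female-biased in mouse kidney, had the largest fold change. It had log2 values of 10.80, 9.87, 11.32 and 10.75 in HFD NiPKO, against 9.36, 7.92, 6.36 and 7.72 in chow CTRL. The chow CTRL arrays spread over 3 log2 units, yet none reached the HFD NiPKO range. Slc7a12 rose 7.2-fold (log2 2.85, SE 0.53, adjusted p = 0.00832), with 2.67 of this in the diet part. Abcb1b, a multidrug efflux pump, rose 2.37-fold (log2 1.24, SE 0.266, adjusted p = 0.0201) and Slc25a25, the mitochondrial ATP-Mg carrier, 2.35-fold (log2 1.23, SE 0.211, adjusted p = 0.00526), both with the diet part alone called. Serpina3n (log2 1.08) and Hp, haptoglobin (1.01), are acute phase proteins, and in both the diet part alone was called. A part that was not called need not be 0. Serpina3n was at 6.28 to 6.95 in HFD NiPKO and 5.91 to 6.39 in HFD CTRL, and Hp at 6.39 to 6.84 and 5.62 to 6.53. The study lists both genes as higher in HFD NiPKO than in HFD CTRL kidneys, at its own thresholds. The hormone gene Lep had 5.49, 5.91, 5.41 and 5.73 in HFD NiPKO and 4.77, 4.73, 4.54 and 4.49 in chow CTRL, without overlap, and the array with high Ucp1 was not the highest. Lep rose by 1.00 on the log2 scale (SE 0.217, adjusted p = 0.021), with the diet part alone called. Without HFD NiPKO replicate 4 or chow CTRL replicate 3 or 4, the calls of Lep and Abcb1b were lost, as was that of Lep without HFD NiPKO replicate 2 and that of Abcb1b without HFD NiPKO replicate 3 (adjusted p = 0.0599 to 0.0656 for Lep and 0.0643 to 0.0765 for Abcb1b).

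A smaller set rose through the genotype part. Mogat2, an acyltransferase of triglyceride synthesis, had 8.16, 7.77, 7.86 and 8.02 in HFD NiPKO and 6.87, 6.98, 6.76 and 6.94 in chow CTRL. Every HFD NiPKO array was well above every chow CTRL array, and the rise was 2.09-fold (log2 1.07, SE 0.157, adjusted p = 0.00184), of which 0.70 was the genotype part and 0.37 the diet part. Elapor1 (log2 0.94), the mucin Muc1 (0.87), Aldh1l2, a mitochondrial folate enzyme (0.80), and Hexa, a lysosomal hexosaminidase (0.65), likewise had only the genotype part called. Of the other genes with the largest rises, Gria3 (1.04), Aqp4, the basolateral water channel of the collecting duct (0.96), and Maob, monoamine oxidase B (0.86), had only the diet part called. The call of Aqp4 was lost in 17 of 25 alternatives, among them leaving out any 1 of 12 arrays, all 4 HFD NiPKO arrays included (adjusted p up to 0.143 in limma). Muc1 lost its call without chow CTRL replicate 2 or 3 (adjusted p = 0.0507 to 0.0531) and Aldh1l2 without HFD NiPKO replicate 1 or 2 (0.0511 to 0.0541).

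**Figure D2:**
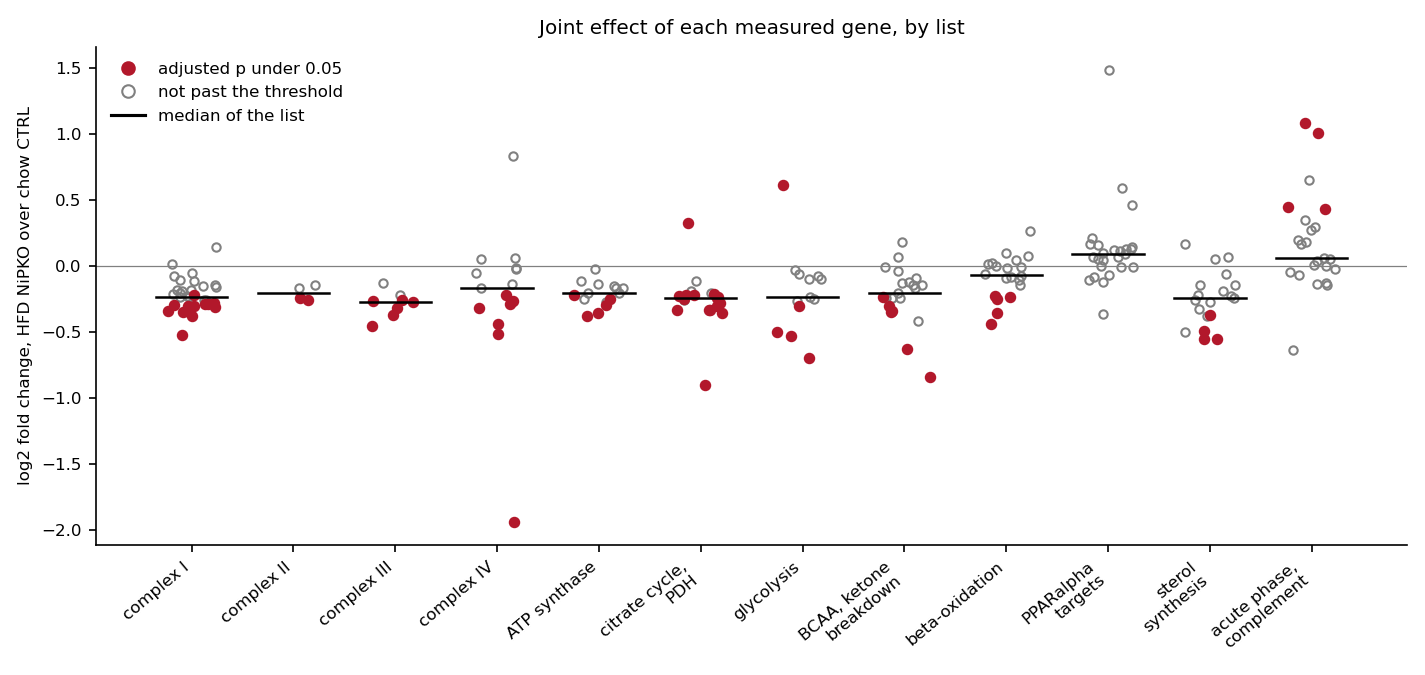
Joint effect (log2 fold change, HFD NiPKO over chow CTRL) of each measured gene in 12 gene lists. Filled points passed an adjusted p under 0.05 in limma, open points did not, and bars are list medians. Most subunits of the respiratory complexes lie below 0, Cox7a1 lies far below the others, and the open point high in complex IV is Cox8b.

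Nuclear genes of oxidative phosphorylation were lower as a group. Of 74 measured subunits of complexes I to IV and ATP synthase, 33 were called lower and none higher, and 69 lay below 0, against 320 lower and 189 higher calls among all 22180 genes. Their median joint effect was -0.23, made of a median genotype part of -0.24 and a median diet part of 0.02, while the median joint effect of all genes was 0.01. By complex, 13 of 32 subunits of complex I were called lower, 2 of 4 of complex II, 6 of 8 of complex III, 7 of 15 of complex IV and 5 of 15 of ATP synthase. Ndufs8 of complex I had 10.58, 10.64, 10.44 and 10.47 in HFD NiPKO and 10.90, 10.95, 10.93 and 10.87 in chow CTRL, and fell by 0.38 on the log2 scale (adjusted p = 0.00199). Uqcrfs1, the Rieske protein of complex III, had 8.04, 8.11, 7.81 and 7.98 in HFD NiPKO and 8.41, 8.52, 8.39 and 8.45 in chow CTRL, a fall of 0.46 (adjusted p = 0.000828). Neither gene's arrays overlapped between the groups. Cox5b (log2 -0.51) of complex IV and Atp5h (-0.36) of ATP synthase were also called lower. Cox8b, a muscle and brown fat form, was at 0.83 with an interval of -0.10 to 1.77 and was not called. Without HFD NiPKO replicate 1, 26 of the 74 subunits were called lower.

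The citrate cycle and pyruvate dehydrogenase followed the same pattern. Of 19 measured genes, 14 were called lower and 1 higher, with a median joint effect of -0.24, a median genotype part of -0.24 and a median diet part of 0.01. Mdh2, malate dehydrogenase, had 11.48, 11.56, 11.45 and 11.46 in HFD NiPKO and 11.80, 11.82, 11.83 and 11.84 in chow CTRL, and fell by 0.33 (adjusted p = 0.000828). Cs, citrate synthase, fell by 0.33 (adjusted p = 0.00747), and Pcx, which replenishes the cycle with oxaloacetate, rose by 0.32 (adjusted p = 0.00965). Without HFD NiPKO replicate 1, 9 of the 19 were called lower. In glycolysis 4 of 13 genes were called lower, among them Pfkm (log2 -0.53) and Ldhb (-0.50), and 1 higher, Pklr (0.61). All 4 lower genes had only the genotype part called, and Pklr had only the diet part called. Of 69 mitochondrial ribosomal proteins, 6 were called lower and none higher, with a median of -0.10. Esrra, which encodes ERRalpha, was at -0.13 (interval -0.27 to 0.01, adjusted p = 0.367), with its genotype part called at -0.21 and a diet part of 0.08. Sirt3, a mitochondrial deacetylase, fell by 0.43 (adjusted p = 0.00106).

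Promoters of the genes that fell were searched for the ERR element TCAAGGTCA, on either strand, in the 300 bases that run from 250 bases before to 50 after the start site (RefSeq, GRCm38.p6). Promoters were listed for 257 of the 320 genes called lower, and for 16990 of all 22180. The element was in 5 of 320 such promoters (1.56%) of lower genes and in 0 of 186 of higher genes. Over all array genes it was in 65 of 20611 promoters (0.315%). Among the 57 genes named for their size of change or their parts, it was in 0 of 50 promoters. In the respiratory chain, ATP synthase and citrate cycle lists together, it was in 2 of 91 (2.2%). A match is a string of letters and not a measured site. The 150 bases before the start site are shown for Atp5g3, a ring subunit of ATP synthase, and Msrb2, a mitochondrial methionine sulfoxide reductase, as 2 of the 5 genes with a match, and the element is in capitals.
Atp5g3 (chr2:73911327-73911476, minus strand): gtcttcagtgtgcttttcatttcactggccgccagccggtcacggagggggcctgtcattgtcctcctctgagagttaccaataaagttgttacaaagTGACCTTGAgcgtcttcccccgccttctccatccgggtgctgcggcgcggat
Msrb2 (chr2:19371486-19371635, plus strand): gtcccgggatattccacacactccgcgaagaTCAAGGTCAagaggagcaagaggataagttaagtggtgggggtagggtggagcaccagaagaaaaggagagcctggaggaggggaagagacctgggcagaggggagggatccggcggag
Atp5g3 had log2 values of 9.63, 9.66, 9.64 and 9.60 in HFD NiPKO and 9.90, 9.98, 9.91 and 9.89 in chow CTRL, and fell by 0.29 (adjusted p = 0.0141), with a genotype part of -0.35. Msrb2 fell by 0.28 (adjusted p = 0.0259), with a genotype part of -0.29. In both genes the diet part was not called, at 0.06 and 0.01. Sdhd of complex II also held the element and fell by 0.26 (adjusted p = 0.0194). The remaining matches were in Tesk1 and in A230107N01Rik, a predicted gene outside the naming rule. Tesk1 had neither part called (genotype part -0.09, diet part -0.14), and A230107N01Rik had both called lower (-0.21 and -0.19).

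Sterol synthesis genes were lower through the diet part. Of 19 measured genes 4 were called lower in the joint effect and none higher, with a median of -0.24, and 12 were called lower in the diet part (median -0.27) against 1 in the genotype part (median 0.02). Insig1, which retains the SREBP complex in the endoplasmic reticulum and is itself a target of it, had 8.83, 8.88, 8.40 and 8.75 in HFD NiPKO and 9.24, 9.47, 9.25 and 9.11 in chow CTRL. These groups did not overlap, and Insig1 fell by 0.55 (adjusted p = 0.0284). Dhcr7, of the last step of cholesterol synthesis, fell by 0.55 (adjusted p = 0.000364) and was the gene of the list with both parts called. Sqle (-0.50, adjusted p = 0.0655) and Fdps (-0.33, adjusted p = 0.166) were called in the diet part but not in the joint effect. The sterol element TCACNCCAC was in 1 of 18 promoters of the list (5.56%), that of Hmgcs1, and in 252 of 20611 (1.22%) of all array genes. Among genes lower in the joint effect, it was in 1 of 66 promoters (1.52%) where the diet part alone was called. Where the genotype part alone was called, it was in 3 of 188 (1.6%). The 150 bases before the start site of Hmgcs1, the HMG-CoA synthase of sterol synthesis, are shown with the element in capitals.
Hmgcs1 (chr13:119690201-119690350, plus strand): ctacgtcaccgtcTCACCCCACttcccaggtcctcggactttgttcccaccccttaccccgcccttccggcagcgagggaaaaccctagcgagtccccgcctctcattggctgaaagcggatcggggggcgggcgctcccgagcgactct
Hmgcs1 was at -0.19 in the joint effect (adjusted p = 0.167), with its diet part called at -0.19 and a genotype part of 0.00. Among fatty acid synthesis and desaturation genes, 3 of 14 were called lower in the joint effect, Scd1, the factor Srebf1 (-0.37) and the desaturase Fads1 (-0.36).

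**Figure D3:**
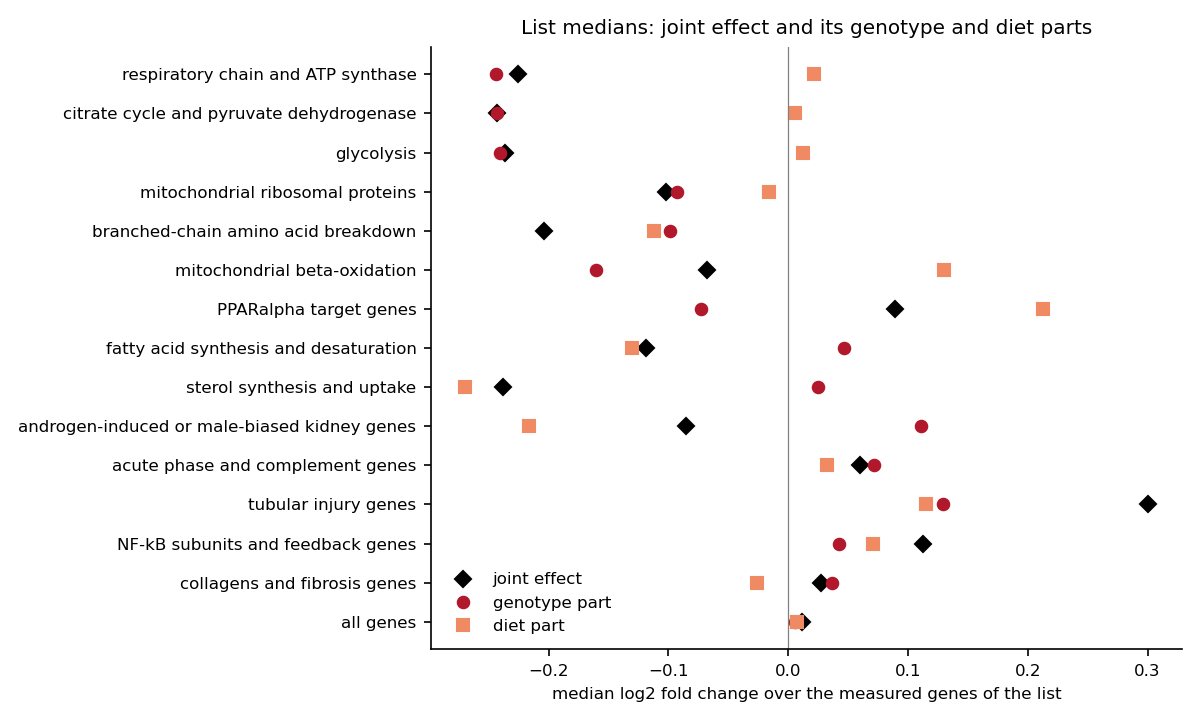
Median log2 fold change over the measured genes of each list, for the joint effect (black diamonds), the genotype part (red circles) and the diet part (orange squares). The respiratory chain, citrate cycle and glycolysis lists lie low in the genotype part with a diet part near 0, the sterol list lies low in the diet part, and mitochondrial beta-oxidation has parts on opposite sides of 0.

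Fatty acid oxidation was the energy list in which the parts pulled apart. Over 20 measured genes of mitochondrial beta-oxidation the median genotype part was -0.16 and the median diet part 0.13, with a median joint effect of -0.07. In the joint effect 5 were called lower and none higher, and in the diet part 4 were called higher and 2 lower. Echs1, the short-chain enoyl-CoA hydratase, fell by 0.44 (adjusted p = 0.00165), and Acadm, Acads, Etfa and Etfdh fell by 0.23, 0.35, 0.25 and 0.23. Without HFD NiPKO replicate 1, 2 of the 20 were called lower and the median joint effect was -0.03, and the calls of Acadm, Acads and Etfdh were lost (adjusted p = 0.064, 0.0582 and 0.0758). PPARalpha targets had a median genotype part of -0.07, a median diet part of 0.21 and a median joint effect of 0.09, and none of 25 was called in the joint effect. Cyp4a14, a PPARalpha target, was at 1.49 with an interval of 0.13 to 2.85 and was not called (adjusted p = 0.284), and its arrays overlapped between the groups.

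In branched-chain amino acid and ketone breakdown the medians of both parts were below 0. Of 21 measured genes, 6 were called lower and none higher and 19 lay below 0, with medians of -0.20 in the joint effect, -0.10 in the genotype part and -0.11 in the diet part. The genotype part was called lower in 2 and higher in 1 of the 21, and the diet part lower in 5. Bdh1, which interconverts the ketone bodies, had 8.16, 8.10, 7.76 and 7.75 in HFD NiPKO and 8.50, 8.77, 9.01 and 8.85 in chow CTRL. It fell by 0.84 (adjusted p = 0.00496), with -0.60 in the diet part and -0.24 in the genotype part. Mccc1 and Acadsb, of leucine and of branched-chain acyl-CoA breakdown, fell by 0.35 and 0.24. Of 7 genes of gluconeogenesis, G6pc fell (-0.53) while Pck1 (0.41), Pcx (0.32) and Slc37a4 (0.22) rose.

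**Figure D4:**
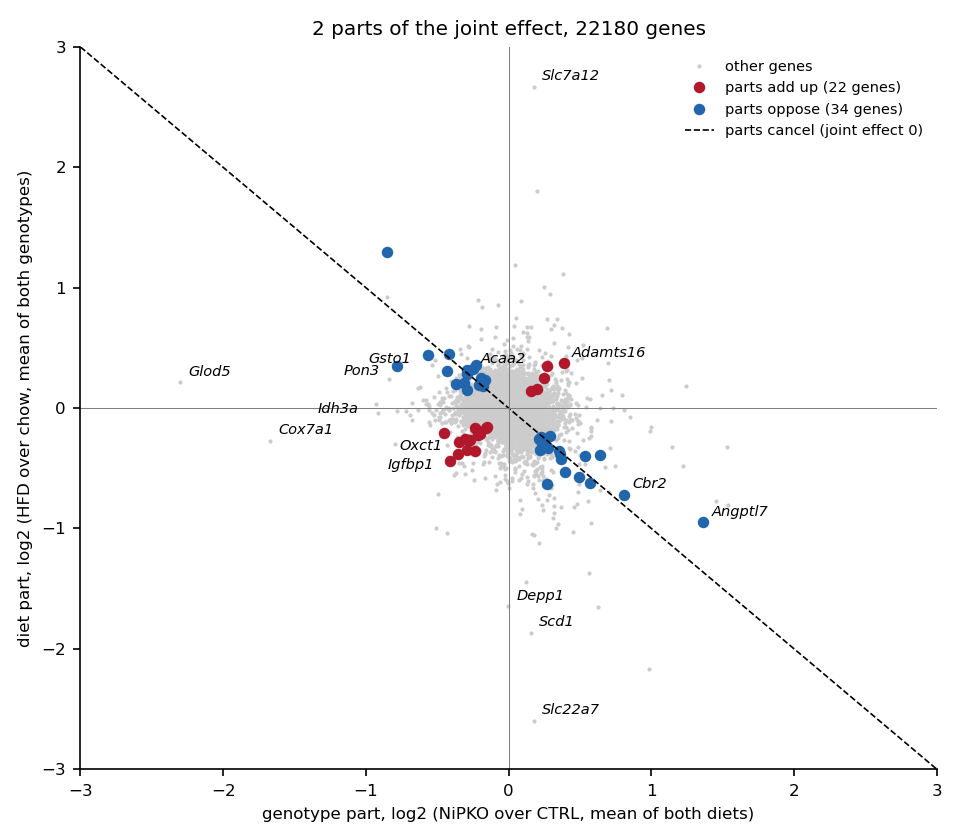
Genotype part (x axis, log2) against diet part (y axis, log2) of the joint effect for 22180 genes. Red points are the 22 genes with both parts called in the same direction, blue points the 34 with both called in opposite directions, and grey points all others. On the dashed line the parts cancel, and most blue points lie close to it.

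In 22 genes the parts added up: 17 were lower in both parts and 5 higher in both, and all 22 were called in the joint effect. In these genes the median size was 0.54 for the joint effect, 0.26 for the genotype part and 0.25 for the diet part. The direction of each part came from the same arrays as the joint effect, which is the sum of the parts. Choosing genes by both parts thus favours a joint call, and these counts are a description. They also depend on how the parts are taken, since 9 genes add up and none opposes when the parts are the knockout on chow and HFD in CTRL mice, and without single arrays 12 to 24 genes added up and 19 to 50 opposed. Igfbp1, a secreted binding protein of insulin-like growth factors that insulin represses, had 6.85, 6.94, 7.19 and 7.17 in HFD NiPKO, against 8.05, 7.63, 7.97 and 7.89 in chow CTRL. Every HFD NiPKO array lay below all others of the series, since HFD CTRL ranged over 7.41 to 7.74 and chow NiPKO over 7.37 to 7.91. Its joint effect of -0.85 (SE 0.12, adjusted p = 0.00129) was the sum of -0.41 and -0.44. Oxct1, the enzyme that commits ketone bodies to oxidation, had 10.70, 10.68, 10.46 and 10.44 in HFD NiPKO and 11.22, 11.16, 11.21 and 11.21 in chow CTRL, with HFD CTRL at 10.67 to 10.98 and chow NiPKO at 10.71 to 10.83. HFD CTRL and chow NiPKO thus lay between, apart from an HFD CTRL array at 10.67. Oxct1 fell by 0.63 (adjusted p = 0.000433), with parts of -0.35 and -0.28.

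Further metabolic genes were in this class. G6pc, the glucose-6-phosphatase that releases glucose, had 12.16, 12.25, 12.53 and 12.16 in HFD NiPKO and 12.85, 12.86, 12.71 and 12.81 in chow CTRL, and fell by 0.53 (adjusted p = 0.00264; parts -0.27 and -0.26). Also lower were Tiam2, an activator of Rac (-0.74), Aldh1l1, a cytosolic folate enzyme (-0.64), Timm9, a chaperone of mitochondrial import (-0.56), and Tlcd5 (-0.54). Dhcr7 (-0.55), Echs1 (-0.44), the mitochondrial ribosomal protein Mrps18a (-0.40) and Aqp3, a water channel of the collecting duct (-0.31), had parts of nearly equal size, except Mrps18a at -0.24 and -0.17. The 5 higher genes were the metalloprotease Adamts16 (0.76), Etnppl, which breaks down phosphoethanolamine (0.62), Vsig1 (0.50), the mitochondrial dicarboxylate carrier Slc25a10 (0.36) and Bcl7b (0.30). Adamts16 had 6.98, 6.71, 7.10 and 7.20 in HFD NiPKO and 6.59, 6.16, 6.22 and 5.98 in chow CTRL, without overlap.

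**Figure D5:**
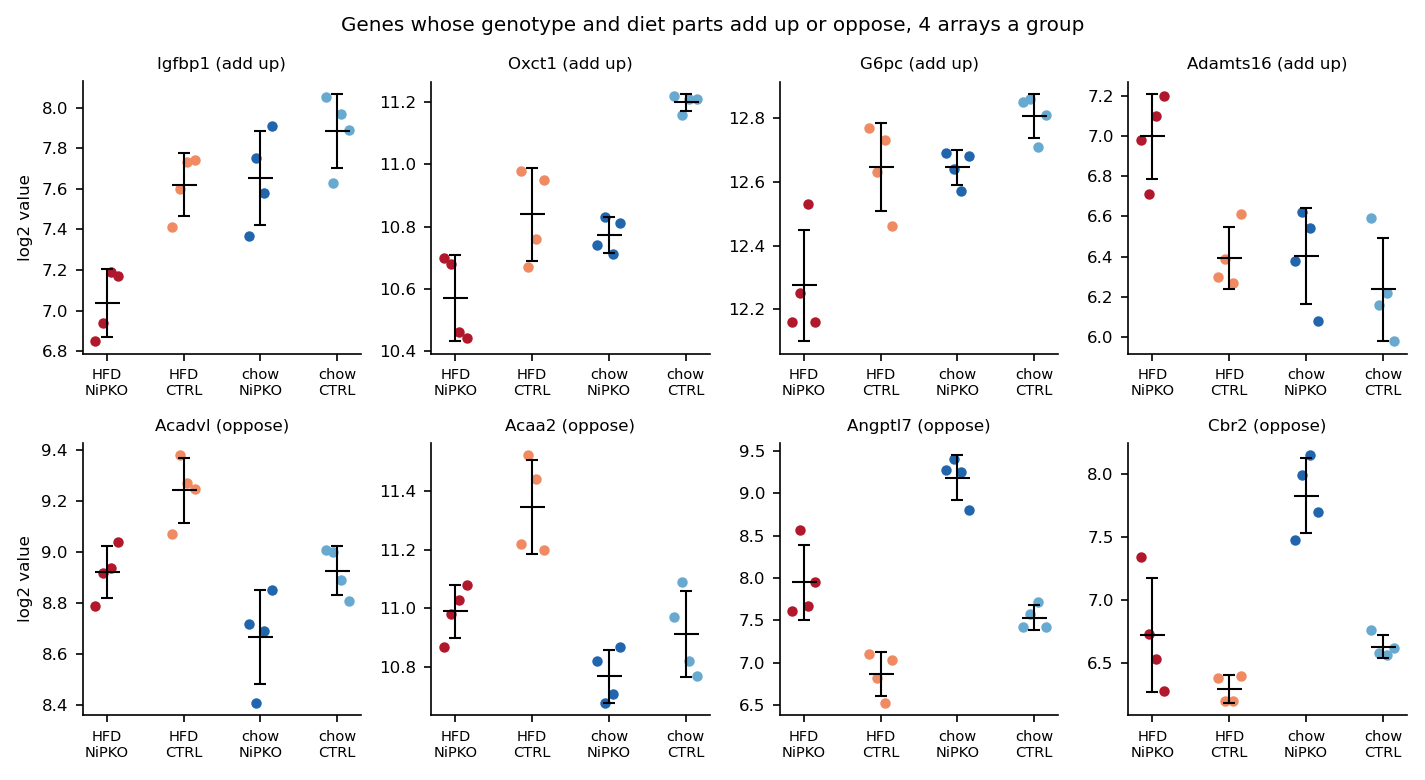
Log2 values of 8 genes in the 4 groups, with 4 arrays each (points), the mean and the SD (black). In the top row the parts add up and HFD NiPKO stands farthest from chow CTRL, and in the bottom row they oppose and HFD NiPKO lies close to chow CTRL.

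In 34 genes the parts opposed each other. In 16 of them the knockout was lower and HFD higher, and in 18 the knockout was higher and HFD lower. The median size of the joint effect was 0.07, against 0.30 for the genotype part and 0.34 for the diet part, and 32 of the 34 were not called in the joint effect. For 29 of the 34 the 95% interval of the joint effect held 0. Parts of opposite sign always leave a sum smaller than the larger part, so these counts too are a description. Acadvl, which starts mitochondrial oxidation of very long chain fatty acids, had 8.79, 8.92, 8.94 and 9.04 in HFD NiPKO and 9.01, 9.0, 8.89 and 8.81 in chow CTRL. These ranges overlapped fully, while HFD CTRL lay higher, at 9.07 to 9.38, and chow NiPKO reached lower, at 8.41 to 8.85. The joint effect was 0.00 after rounding (interval -0.20 to 0.19), with a genotype part of -0.29 (adjusted p = 0.0191) and a diet part of 0.29 (adjusted p = 0.0232). Acaa2, the thiolase of the last step, had 10.87, 10.98, 11.03 and 11.08 in HFD NiPKO and 10.97, 11.09, 10.82 and 10.77 in chow CTRL. Its joint effect was 0.08 (interval -0.11 to 0.26), with parts of -0.25 and 0.33.

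The other genes of this direction had varied roles. Gsto1, a glutathione transferase, had parts of -0.57 and 0.44 and a joint effect of -0.13 (interval -0.39 to 0.13). For Agt, angiotensinogen, the parts were -0.43 and 0.31 and the joint effect -0.12 (interval -0.35 to 0.10). Tmie (-0.42 and 0.45), Gas6, a ligand of TAM receptors (-0.23 and 0.36), and Cadm4 (-0.31 and 0.21) had joint effects of 0.03, 0.13 and -0.10. Pon3, a lactonase, remained lower at -0.43 (adjusted p = 0.0463), since its genotype part of -0.78 exceeded its diet part of 0.35, but the call was lost in 14 of 25 alternatives, among them leaving out any 1 of 12 arrays (adjusted p up to 0.145 in limma).

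Of the genes with a higher knockout and a lower HFD level, Angptl7, a secreted angiopoietin-like protein, had the largest parts. It had 7.61, 8.57, 7.67 and 7.95 in HFD NiPKO and 7.42, 7.57, 7.72 and 7.42 in chow CTRL, with 8.80 to 9.41 in chow NiPKO and 6.53 to 7.10 in HFD CTRL. HFD NiPKO and chow CTRL overlapped, and the groups with 1 change each lay on either side of them. The parts of 1.37 and -0.95 left 0.41 (interval 0.02 to 0.81, adjusted p = 0.301). Cbr2, a carbonyl reductase, had parts of 0.81 and -0.72 and a joint effect of 0.09 (interval -0.28 to 0.46). For Ttr, transthyretin (0.54 and -0.40), Cdhr2, a brush border protocadherin (0.57 and -0.63), and the inflammasome sensor Nlrc4 (0.40 and -0.54), the joint effects were 0.14, -0.06 and -0.14. Fads1 remained lower, with parts of 0.27 and -0.63.

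No gene departed from additivity at an adjusted p under 0.05 in limma (0%), the smallest adjusted p being 0.125, and 1828 genes had an unadjusted p under 0.05. The departure is the joint effect minus the sum of the knockout effect on chow and the HFD effect in CTRL. Tet2, an enzyme that oxidizes methylcytosine, had 9.88, 9.77, 9.92 and 9.66 in HFD NiPKO and 9.24, 9.18, 9.21 and 9.36 in chow CTRL, with HFD CTRL at 9.23 to 9.47 and chow NiPKO at 8.96 to 9.30. All HFD NiPKO arrays were above all others, and the joint effect of 0.56 (adjusted p = 0.00145) exceeded the sum of 0.02 for the separate changes, with an interval of the difference of 0.30 to 0.78. The departure itself was not called (adjusted p = 0.337). Tet2 was chosen after its values were seen. Of the 6 genes with the smallest p for the departure that the naming rule takes, Riok1, Cd93, Zfp180 and Zfp317 had a joint effect above the sum, by 0.54, 0.57, 0.46 and 0.38. Ssxa1 and the chemokine Cxcl1 had one below it, by a difference of -0.42 and -0.61. None of the 6 was called in the joint effect.

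Of the injury and inflammation lists, acute phase and tubular injury genes held most of the calls, and 0.852% of all genes were called higher. Of 23 acute phase and complement genes 4 were called higher and none lower: Hp, Serpina3n, the ferroxidase Cp (0.45) and complement C2 (0.43). Without HFD NiPKO replicate 1, 2 of the 23 were called higher and the median went to 0.11, against 0.06 with it, and Cp and C2 lost their calls (adjusted p = 0.0736 and 0.0969). Of 14 tubular injury genes, Timp1 (0.39) and Clu (0.39) were called higher, and 13 lay above 0 with a median of 0.30. Without HFD NiPKO replicate 1, Clu lost its call (adjusted p = 0.0641), although 2 of the 14 were still called higher. None of 15 NF-kB genes, 25 chemokines and cytokines or 29 cytokine STAT and Toll-like receptor genes was called. Their medians were 0.11, 0.10 and 0.10. At the study thresholds 3, 4 and 4 of them were higher and 0, 1 and 0 lower, against 2.93% and 2.7% of all genes. Over 12 lymphocyte markers, none was called and the median joint effect was 0.20, or 0.13 without HFD NiPKO replicate 1. The lists of collagens and fibrosis genes (24 measured) and of interferon-stimulated genes (17 measured) had 1 call each, both higher. The call among collagens and fibrosis genes was again Timp1. The mean level of the lymphocyte markers was 5.21 to 5.42 in HFD NiPKO and 5.05 to 5.18 in chow CTRL, and its part in the inflammation lists was not tested.

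Calls in the transporter and nephron marker lists are given here beside the shares of all genes, 1.44% called lower and 0.852% higher. None of 22 sodium and chloride transporters was called, with a median of 0.01 (-0.01 without HFD NiPKO replicate 1). Of 26 organic ion transporters, Abcb1b was called higher and Slc22a7 and Slc22a4, the ergothioneine transporter OCTN1 (-0.35), lower. Of the 26, 1 was called lower without HFD NiPKO replicate 1, since Slc22a4 lost its call (adjusted p = 0.0637). Of 20 genes of fatty acid uptake and lipoproteins, 3 were called higher: Apob (0.55), Apoe (0.45) and Abcg1 (0.35), which serve lipoproteins and cholesterol efflux. Apob alone of these was called higher without HFD NiPKO replicate 1, and Apoe and Abcg1 were not (adjusted p = 0.062 and 0.0784). Lpl, lipoprotein lipase, fell by 0.80 and was just inside the threshold (adjusted p = 0.05). Of 14 androgen-induced or male-biased kidney genes, none was called in the joint effect (median -0.09, or -0.14 without HFD NiPKO replicate 1), while 5 were called lower in the diet part (median -0.22, against a median genotype part of 0.11). Of 12 proximal tubule markers 1 was called higher and none lower. Their mean log2 level was 12.19 to 12.26 in HFD NiPKO and 12.15 to 12.23 in chow CTRL. None of 7 loop of Henle markers was called, and of 11 collecting duct markers 1 was called lower and 1 higher. In the distal convoluted tubule list 1 of 6 was called. This was Calb1, a calcium-binding protein of the distal tubule, which fell by 0.55 (adjusted p = 0.00796).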

How the data were processed

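Total RNA of whole kidney was hybridised to 16 whole-transcript mouse gene arrays, 4 per group. The values are log2 expression levels of 41345 probe sets, as deposited after processing by the authors. Partek appears in the submitters' processing notes. The sources used here do not give the background correction or the scaling between arrays. Signal over background is unknown, and precision is limited by 4 arrays per group. Of the probe sets, 23521 carried 1 gene symbol, 1820 several and 16004 were not named. The brightest probe set of each symbol gave 22180 genes, of which 1082 had several. Values ran over 2.07 to 13.8 and array medians over 5.35 to 5.40.

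One limma 3.58.1 model (R 4.3.3) with 4 group means was fitted to all arrays with lmFit and eBayes, without a block. The fit was also run on simulated data with known changes, whose means and spreads were taken from these arrays. Genes named are the 12 largest changes per direction, up to 8 per class and direction, up to 6 per single part and direction, up to 4 per list, up to 6 by departure from additivity and those the study names, leaving out predicted genes, small RNAs, pseudogenes and receptor families of smell and taste. Genes outside this rule, such as Ucp1, Cidea, Cox8b, Msrb2 and Hmgcs1, were chosen after their values were seen. The members and lists were chosen with earlier results of these data known. Promoters came from RefSeq tables. Alternatives were other normalization, filters, priors, weights, tests, probe set means, thresholds, a replicate block and leaving out arrays.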

Additional observations from a re-analysis of the deposited data

Results flagged for a closer look

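In 9 of 228 groups of 4 arrays checked over 57 genes, 1 array lay far from the other 3 by Dixon's criterion, which flags about 1 in 20 groups by chance. HFD CTRL replicate 4 was such an array for 3 genes. Slc22a7 read 8.24 there, against 5.58 to 6.03 in the other HFD CTRL arrays, Cpe 8.3 against 7.24 to 7.38, and Ces2g 6.38 against 6.93 to 6.94. In HFD NiPKO kidneys Depp1 read 7.78 in replicate 1 (the array with high Ucp1), against 6.98 to 7.1 in the others. Maob read 7.63 in HFD NiPKO replicate 2, against 7.88 to 7.91, and Ttr 12.13 in the same array, against 11.82 to 11.84. Gsto1 read 9.06 in HFD CTRL replicate 3, against 8.58 to 8.65. In chow CTRL replicate 2, Oxct1 read 11.16, against 11.21 to 11.22, and Tmie 7.14, against 6.78 to 6.83.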

How the results depend on the processing

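The 509 joint calls became 264 with the arrays of the groups alone, 877 among brighter genes only, 81 with the methods' t-test and 80 with a fold change over 1.5 added. At the study thresholds 1248 genes became 128 at a fold change over 1.5. Genotype calls went to 32 of 595 at that fold change, and diet calls to 73 of 697, or 1217 among brighter genes. The 22 genes that add up became 45 among brighter genes, 35 with a trend and robust prior, 0 at a fold change over 1.5, and 9 with the knockout on chow and HFD in controls as the parts. The 34 that oppose became 85, 62, 3 and 0 in the same settings, and 61 at the study thresholds in both parts. Departures went to 1 among brighter genes (Mir92b, adjusted p = 0.0436) and 2 without chow CTRL replicate 4 (Mir532 and Mir92b). Why these counts differ was not tested beyond the fewer genes or arrays of some settings. Leaving out 1 array gave 272 to 510 joint calls, 1239 to 1492 at the study thresholds, 465 to 564 genotype calls, 416 to 762 diet calls, 12 to 24 genes that add up, 19 to 50 that oppose and 0 to 2 departures. Joint calls moved by more than 1.5 times without HFD NiPKO replicates 3 (272) and 4 (286) and chow CTRL replicates 2 (315), 3 (339) and 4 (295). So did diet calls without HFD NiPKO 3 (431) and 4 (450), HFD CTRL 3 (438), chow NiPKO 2 (416) and 3 (442) and chow CTRL 4 (437), genes that add up without HFD NiPKO 3 (12) and 4 (13), HFD CTRL 2 (14) and 3 (12), and chow NiPKO 2 (14) and 3 (13), and genes that oppose without HFD NiPKO 1 (22), 2 (21) and 4 (22), HFD CTRL 2 (20) and chow NiPKO 2 (19). Without HFD NiPKO replicate 1, the array with high Ucp1, 402 genes were called, 358 of them among the 509, and the counts of gene lists without this array were added after seeing the data. Higher genes were 37.1% of the joint calls, 25.6% after median centring (377 lower, 130 higher) and 16% with the t-test (68 lower, 13 higher), and 52.1% at the study thresholds but 40% after median centring (754 lower, 503 higher). The replicate numbers were not taken to pair the arrays, since same-numbered arrays had correlations of -0.107 to 0.0849 between HFD NiPKO and chow CTRL (2 of these 8 arrays correlated best with their own number) and of -0.107 to 0.166 over all 24 pairs across the 4 groups, 3 of them over 0.1. A replicate block gave 430 joint calls (267 lower, 163 higher), 390 of them among the 509, 1285 genes at the study thresholds and no departure. Of 57 genes checked one by one, none reversed with a call in either fit, over the 24 or 25 alternatives run for each. A change of sign between fits without a call was not counted. For example, the joint effect of Tmie ran over -0.04 to 0.12 and that of Cbr2 over -0.11 to 0.24. In some alternatives 34 of the genes lost the call, all 34 with the t-test (adjusted p = 0.204 for Slc22a7), among them Aqp4 (17), Pon3 (14), Akr1c18 (8) and Slc22a7 (7). Of the other 23, the called genes Glod5, Idh3a, Mogat2, Hp, Aldh1l1, Oxct1, Dhcr7 and Thap4 kept the call in every alternative. The rest of the 23, such as Acadvl and Ttr, were not called in the joint effect and had no call to lose.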
